A study of Mus musculus with 2 samples.

Results

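The clustered protocadherins are cell-surface adhesion proteins encoded by 58 neighbouring genes on mouse chromosome 18. Peaks were counted as theirs when the authors' annotation gave them a symbol of the Pcdha, Pcdhb or Pcdhg (A, B or C) series. This held for 23 of the 99797 peaks in the list. The peaks came from 1 CUT&Tag library of hippocampus from C57BL/6J mice carrying the CamK-PARIS genotype, for which the antibody was anti-FLAG. CUT&Tag uses an antibody to bring a cutting enzyme to the DNA that the antibody's target occupies, and here the target was FLAG-tagged PARIS, a zinc-finger repressor. The peaks were called against 1 IgG library of the same tissue and genotype, whose own signal was not analysed here. Both libraries carry the CamK-PARIS genotype, so no tissue without it was compared. The labels give neither the animals' age and number nor the element that drives the transgene. With 1 library there is no replicate error, and no difference below was tested between conditions. The intervals are exact binomial 95% intervals and cover counting error only. They treat gene starts and peaks as independent, which neighbours in 1 locus need not be.

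Each neuron makes a few of these proteins from a large choice, and the resulting surface code lets its branches tell self from other. The locus has 3 subclusters in the order alpha, beta and gamma. In the alpha and gamma subclusters every gene has its own large first exon with its own promoter, and this exon is spliced to 3 short constant exons at the end of the subcluster. The beta genes have a single exon each. Most promoters carry a conserved element that binds CTCF, a factor that anchors DNA loops, and are chosen at random in each cell by contact with enhancers near the constant exons. The C-type genes at the ends of the alpha and gamma subclusters are made more uniformly, and the promoters of Pcdhac2, Pcdhgc4, Pcdhgc5 and Pcdhb1 are known to lack that element. Bulk tissue averages over all of these cells, and peaks in few cells cannot be told apart from low peaks in many.

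The authors' peaks gathered at the 3′ ends of the alpha and gamma subclusters and were sparse over the variable and beta exons. At those ends they lay at Pcdhac2, Pcdhgc4 and Pcdhgc5 and in the introns before and between the constant exons. The C-type genes Pcdhac1 and Pcdhgc3 had no peak within 1 kb of their starts. These ends were singled out after the values were seen. Of the 58 genes, 13 had at least 1 peak assigned by the authors' symbol and 45 had none. The 13 include Pcdhgb8, whose 4 peaks lie 60509 bp or more beyond its start. The same share over all genes was not counted, so the count of 13 alone cannot be called low or high. Only 5 of the 58 gene starts had a peak within 1 kb (8.62%, 2.86 to 19.0), where 39.3% of all 21938 protein-coding starts did. On chromosome 18 alone the share was 40.2% of 513 starts. A peak lay directly over 4 of the 58 starts (6.90%, 1.91 to 16.7), against 20.4% of all protein-coding starts. The starts with a peak were those of Pcdha8, Pcdhac2, Pcdhb18, Pcdhgc4 and Pcdhgc5. Gene starts were taken from GENCODE M21, and Pcdhgb8 counts among the 58 although it is annotated there as a polymorphic pseudogene.

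**Figure D1:**
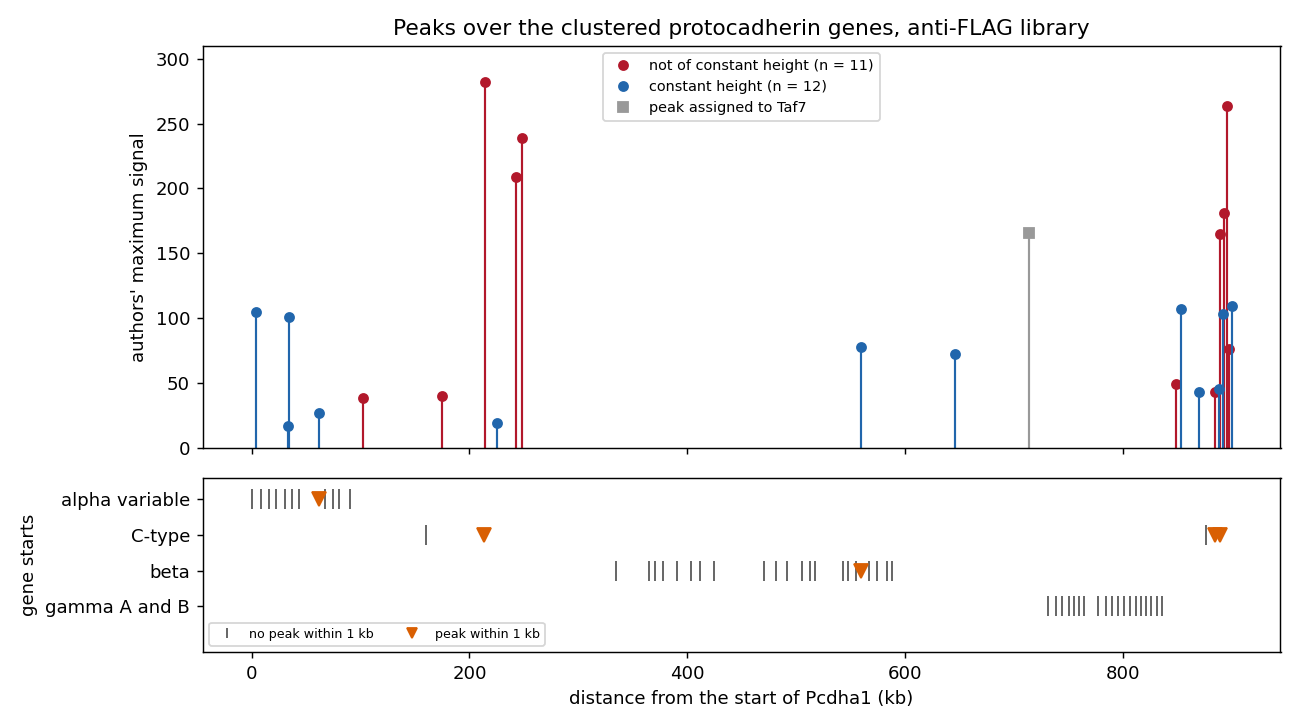
Upper panel: the authors' maximum signal of each peak (vertical axis) against its distance in kb from the start of Pcdha1, with red for peaks not of constant height, blue for peaks of constant height and a grey square for the 1 peak in the span that was assigned to Taf7. Lower panel: gene starts by subcluster, with triangles for starts that have a peak within 1 kb; the 6 highest protocadherin peaks stand at the right ends of the alpha and gamma subclusters, and 17 beta starts and 19 gamma starts lie in stretches with no peak.

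The C-type genes held most of the starts with a peak. Among the 5 C-type starts, 3 had a peak within 1 kb (60%, 14.7 to 94.7). Among the 53 other starts, 2 did (3.77%, 0.460 to 13.0). By subcluster these were 1 of 12 alpha starts, 1 of 22 beta starts and 0 of 19 gamma A and B starts, the last with an upper limit of 17.6%. The C-type genes are few, and their interval reaches down to 14.7%. All 3 C-type starts with a peak had 1 that was not of constant height, which no variable or beta start had. A peak is called of constant height here when its total signal reaches at least 99% of its maximum signal times its width, the shape of a flat block. Over all protein-coding starts, 27.8% had a peak within 1 kb that was not of constant height, and over the 58 starts 5.17% did (1.08 to 14.4).

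**Figure D2:**
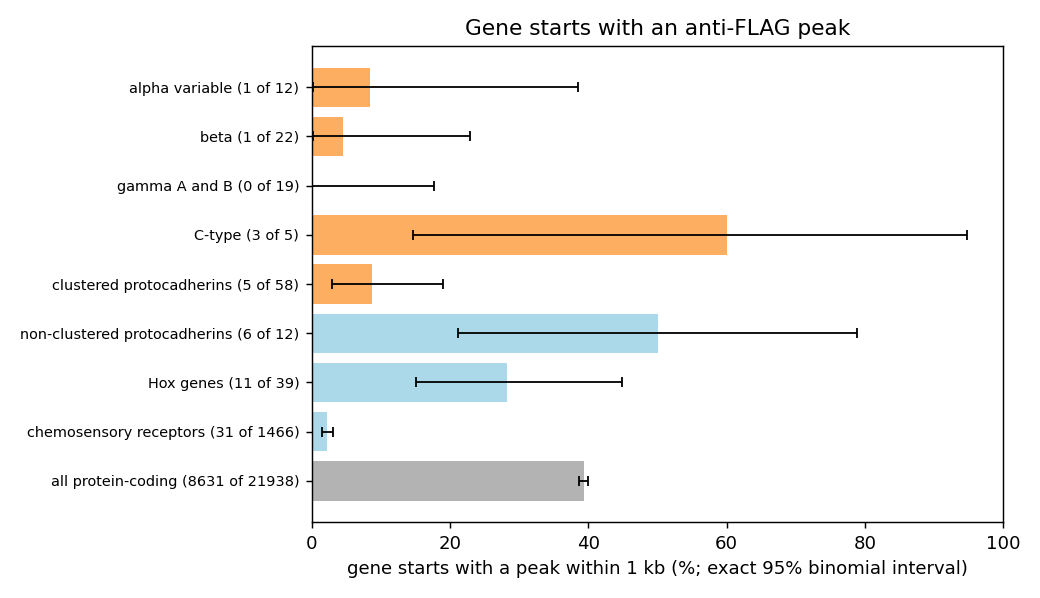
Share of gene starts with a peak within 1 kb (horizontal axis, percent), with exact binomial 95% intervals as bars and the counts beside each name. Orange marks the clustered protocadherins and their subclusters, blue other gene families and grey all protein-coding genes; the C-type genes stand at 60% and the gamma A and B genes at 0.

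The peak at Pcdhac2 (ENSMUSG00000102697), the last gene of the alpha subcluster, carried the highest signal of the locus. It covered 37143539 to 37144536 of chromosome 18 on mm10, began 36 bp after the gene start and lay wholly inside the first exon, which holds 3028 bp. Its maximum signal of 282 ranked 2807 of all peaks and its total signal of 140030 ranked 1724. Its mean signal over 998 bp was 140.3, the highest of the 23. With a GC content of 70.5% at its summit it was also the most GC-rich of them.

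Pcdhac2 had 3 further assigned peaks, all inside its introns, with values that differed widely. The peak at 37154820 to 37155274, in intron 1 of 3, had a flat signal of 19, among the lowest of the locus. The other two lay in intron 3, between the second and the third of the shared constant exons. The one at 37172496 to 37173238 reached a maximum of 209 over 61 of its 743 bp, with a mean of only 34.0 over the whole peak. It overlapped the start of the antisense RNA gene Gm38097. The one at 37178368 to 37179278 reached 239 with a mean of 125.9 and a total signal of 114697, and it overlapped the start of the antisense RNA gene Gm10544. Both were assigned to Pcdhac2 by the authors, at 29031 and 34878 bp from its start. CUT&Tag signal has no strand, so signal at these starts cannot be divided between the sense and the antisense gene.

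Pcdhac1, the other C-type gene of the alpha subcluster, differed from Pcdhac2. Its only assigned peak, at 37104376 to 37105026, lay 14989 bp downstream of its start by the authors' distance and had a maximum signal of 40. No peak lay within 10 kb of its start. Of the 200 bp around its summit, 93.5% was masked as repeat in the reference.

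The gamma C-type genes stand in a row before the gamma constant exons. Pcdhgc3, the first of them, had 1 peak at 37799629 to 37799861, flat at 43 and at -6549 bp from its start (upstream). The start of Pcdhgc4 was overlapped by a low peak at 37814663 to 37815334 with a maximum of 43 and a total signal of 24602. Pcdhgc5 had 3 peaks. The peak at 37818921 to 37819840 overlapped its start with a maximum of 165 and a total signal of 50593, and its highest part ended 41 bp upstream of that start. A flat peak of 45 at 37817675 to 37818353 lay in the first exon of Pcdhgc4, and one of 38 bp at 37821621 to 37821658, flat at 103, in the first exon of Pcdhgc5. The start of Pcdhgc5 thus carried the higher signal and that of Pcdhgc4 a signal in the lowest 12.4% of the list, by maximum.

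The last 4 peaks of the locus carry the symbol Pcdhgb8, but they lie 60509 bp or more beyond the start of that gene. In GENCODE M21 the transcripts the authors assigned to them belong to Gm38182, an RNA gene that starts 3′ of the first exon of Pcdhgc5, and the authors' table gives them no Ensembl gene. By position they lie within the introns of Pcdhgc5 and of every other gamma gene, the first in intron 1 of 3 and the others in intron 2, between the first and second constant exons. The first, at 37822310 to 37823008, had a maximum of 181 and a total signal of 62755. It also overlapped a longer first exon of another Pcdhgc5 transcript. The second, at 37825162 to 37826030, reached 264 over only 25 bp, with a mean of 38.9. The third, at 37827440 to 37827667, reached 76. The fourth, at 37829747 to 37829932, was flat at 109 and lay within the antisense RNA gene Gm29994.

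**Figure D3:**
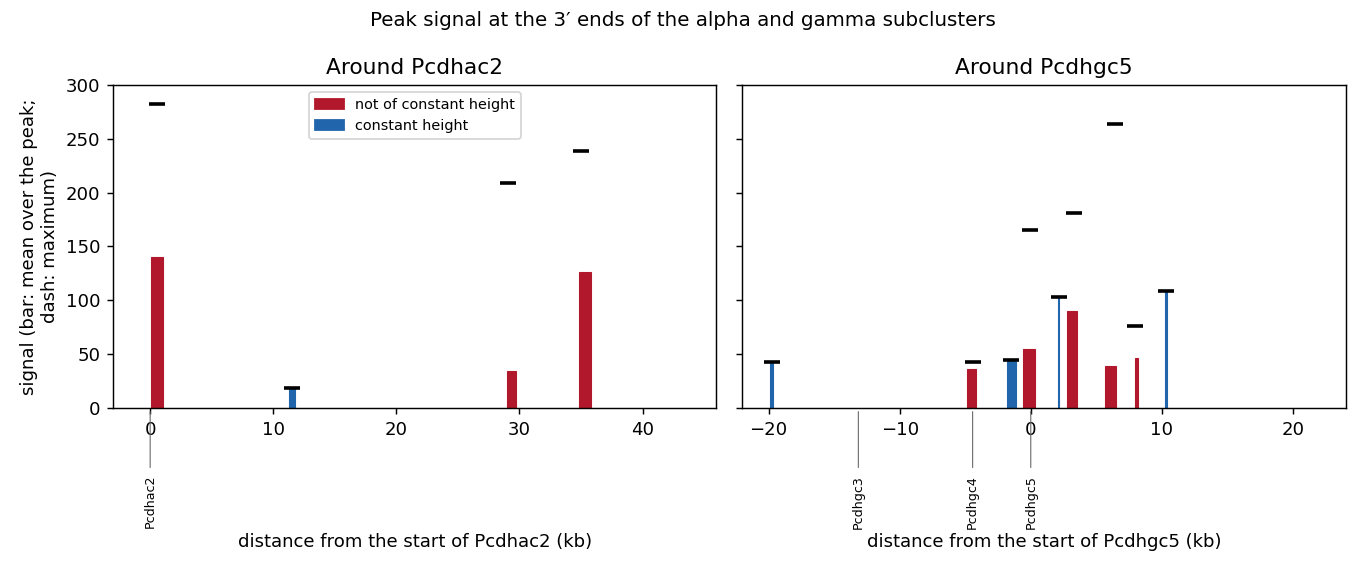
Signal (vertical axis) against distance in kb from the start of Pcdhac2 (left) and of Pcdhgc5 (right), with each peak drawn at its width, its mean signal as a bar and its maximum as a dash at the middle of its highest part. Red bars are not of constant height and blue bars are; the Pcdhac2 start has the highest bar at 140.3, and the dash of 264 over a mean of 38.9 marks the second peak with the symbol Pcdhgb8.

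The 2 ends of the subclusters were then pooled by position, a division chosen after the values were seen. From the start of Pcdhac2 to the end of the alpha subcluster there were 4 peaks in 44.2 kb, and from the start of Pcdhgc4 to the end of the gamma subcluster there were 8 in 26.8 kb. The 2 stretches make up 7.78% of the span of the locus and held 12 of the 23 peaks and 73.8% of their summed total signal. Their maximum signal ranged from 19 to 282 with a median of 137. The other 11 peaks ranged from 17 to 107 with a median of 49. The groups overlapped, and the 6 highest peaks, at 165 or more, all belonged to the 2 ends. Peaks not of constant height made up 8 of the 12 and 3 of the 11. Because the ends were drawn with the values known, these contrasts are no independent support for a difference. Divided by gene symbol instead, the 10 C-type peaks had a median maximum of 74 and the 13 other peaks 78.

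Over the alpha variable genes 5 peaks were assigned, and all were low or narrow. Pcdha8 had the only one over a start, at 36992247 to 36992511, with a flat signal of 27 that ranked 93454. Pcdha5 had 2, flat at 17 and 101 and both between 2 and 4 kb into the gene. Pcdha1 had 1 of 126 bp, flat at 105, within the antisense RNA gene Gm37751. Pcdha12 had 1 with a maximum of 38, 12226 bp from its start and wholly within masked repeats. Pcdha2, Pcdha3, Pcdha4, Pcdha6, Pcdha7, Pcdha9, Pcdha10 and Pcdha11 had none.

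Beta genes had 2 peaks in all. The one over the start of Pcdhb18, at 37489149 to 37489584, was flat at 78 with a total signal of 34005. It also overlapped an exon of Pcdhb17, which ends just before. The other was assigned to Pcdhb22 but lay 58257 bp from its start, beyond the gene and between the beta and gamma subclusters. It was flat at 72, and 97.6% of it was masked as repeat. The other 20 beta genes, Pcdhb1 to Pcdhb17 and Pcdhb19 to Pcdhb21, had no assigned peak. From 37179279 to 37489148 no peak was called at all. This stretch of 309.9 kb contains the starts of the 17 genes from Pcdhb1 to Pcdhb17 and ranked 7 by length among the 3214 stretches between peaks on chromosome 18, whose median was 11.8 kb.

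None of the 19 gamma A and B starts had a peak within 10 kb. At that distance 67.6% of all protein-coding starts and 24.1% of the 58 clustered starts had one. The stretch from 37643751 to 37778501, 134.8 kb long, contained all 19, from Pcdhga1 to Pcdhga12, and no peak. It ranked 95 on the chromosome. The nearest peak on its 5′ side was assigned to Taf7, the only peak in the locus with a symbol of another family. Taf7 encodes a subunit of the general transcription factor TFIID, and its peak at 37643367 to 37643750 reached 166. On the 3′ side, Pcdhga12 was assigned 2 peaks at 12924 and 17789 bp from its start, with maxima of 49 and 107. The genes without an assigned peak were Pcdhga1 to Pcdhga11, Pcdhgb1, Pcdhgb2 and Pcdhgb4 to Pcdhgb7.

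Counting all 24 peaks between the first and the last exon of the family, the locus had 26.3 peaks per Mb, against 36.8 on chromosome 18 as a whole. The ratio was 0.716, with an exact Poisson 95% interval of 0.459 to 1.07 from the count in the locus alone. The number of peaks was thus not shown to differ from the mean of the chromosome. Of these peaks, 8 fell in the 26.8 kb from the start of Pcdhgc4 to the end of the gamma subcluster. That stretch was chosen after the values were seen, and unevenness of placement was not tested.

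The 23 peaks were spread widely in signal, though none was near the maximum of 2395 in the list. Their maximum signal ranged from 17 to 282 around a median of 78, and its quartiles were 43 and 137. Over all peaks the median was 101, with quartiles of 66 and 135. The lower quartile of the protocadherin peaks was thus below and the upper close to that of the list, and 9 of 23 fell below the lower quartile of all peaks (39.1%, against 24.7% of the list). In maximum signal 4 of the 23 were among the highest 10% of all peaks, and in total signal 3 were. Median total signal was 24602, against 24532 over the list, and median width 455 bp, against 363 bp. A total of 11 were not of constant height (47.8%, 26.8 to 69.4), against 36.7% of the list.

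**Figure D4:**
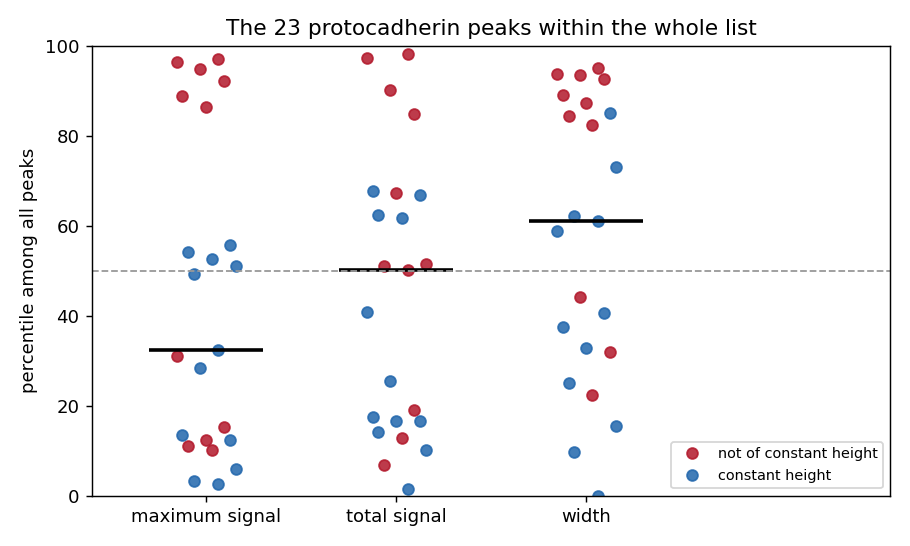
Percentile of each of the 23 protocadherin peaks among all peaks (vertical axis) for maximum signal, total signal and width, with the median as a black line and the dashed line at 50. Red points are peaks not of constant height and blue points peaks of constant height; in maximum signal the 6 highest peaks are set apart from the other 17, all of which had 109 or less.

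By the authors' distances, 6 of the 23 peaks lay within 1 kb of a start of any transcript (26.1%, 10.2 to 48.4). For the whole list this was 15.3%, and for chromosome 18 11.2%. The authors placed 11 of the 23 in promoters (within 3 kb), or 47.8%, against 24.6% of all peaks. These 11 are not all at protocadherin promoters. The peaks labelled Pcdhgb8 at 37822310, 37825162 and 37827440 were placed there by transcripts of Gm38182. Introns held 8, or 34.8%, against 38.0%, and exons 4, or 17.4%, against 3.52%. None was in distal intergenic sequence, which held 31.9% of all peaks. In the annotation, long introns of alpha, gamma and read-through transcripts span nearly the whole locus. All 4 peaks classed as exonic were in exons of antisense RNA genes, namely Gm37751, Gm38097, Gm10544 and Gm29994.

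Base composition differed along the locus. In windows of 200 bp at the summits, GC content was 48.3% ± 10.1 (SD over 23 windows), against 43.0% ± 7.03 in windows 1000 bp to either side. It was higher at the summit in 16 of 23 (69.6%), against 64.3% of all peaks. The mean difference was 5.26 percentage points, and 2.03 with windows 2000 bp away. Over all peaks the values were 49.0% ± 8.92 and 45.6% ± 6.80. The 12 peaks at the 2 ends, a division chosen after the values were seen, had a median of 55.8% GC and ranged from 44.5% to 70.5%. The other 11 had a median of 39.5% and ranged from 32.5% to 48.5%. More than 50% of the window was masked as repeat at 0 of those 12 summits and at 6 of those 11, against 15.5% of summits in the list. The part of repeats in the placement of the peaks was not tested.

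Matches to short motifs were counted on both strands of the same windows. The insulin response sequence, TATTTTT or TATTTTG, which is reported to bind PARIS, occurred at 1 of the 23 summits (4.35%, 0.110 to 21.9), that of Pcdhb18. It occurred in 9.95% of all summits. In the flanking windows the share was 17.4% for the 23 peaks and 13.6% for all peaks. Over whole peaks, which differ in width, 3 of the 23 held it. They were the peak of Pcdhb18, the peak of Pcdhgc5 at 37817675 and the peak labelled Pcdhgb8 at 37825162. The share over whole peaks of the list was not counted. CGCT, the core of the conserved promoter element, occurred at 9 of 23 summits (39.1%, 19.7 to 61.5) and at 31.4% of all summits. So short a match does not mark the whole element. It also occurred at the summits by the starts of Pcdhac2 and Pcdhgc5, whose promoters are known to lack the element. The longer CTCF core motif occurred at 0 of 23 and at 0.419% of all summits, and the upper limit for the 23 was 14.8%. Sequence of these regions is not printed.

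Other families were set beside the clustered genes. The non-clustered protocadherins, single genes scattered over the genome that encode related adhesion proteins, had 173 peaks, and 6 of 12 starts had a peak within 1 kb (50%, 21.1 to 78.9). Pcdh1 had 28 peaks, and the one over its start had a maximum signal of 255. Pcdh9 had 42, and the one over its start had a maximum signal of 248. The family was uneven, as Pcdh8 and Pcdh12 had no assigned peak and Pcdh10 had 1. Starts of Hox genes, which are also arranged in clusters, had a peak in 11 of 39 cases (28.2%, 15.0 to 44.9). Starts of chemosensory receptor genes, which stand in tandem arrays, had one in 31 of 1466 (2.11%, 1.44 to 2.99). The share of the clustered protocadherins, 8.62%, lay between the last 2 families. No difference between families was tested.

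Genes whose products act on the locus or downstream of it were read from lists chosen with earlier results of these data known. Their shares are therefore described and not read as enrichment. Of 11 chromatin factors, 6 had a peak within 1 kb of the start (54.5%, 23.4 to 83.3), an interval that includes the 39.3% of all protein-coding starts. They were Setdb1, a histone methyltransferase; the cohesin subunits Rad21, Smc1a and Stag2; Nipbl, which loads cohesin; and Smchd1, a repressor of the locus. Ctcf had its nearest peak at 3145 bp, and Stag1, Smc3, Wapl and Dnmt3b also had none within 1 kb. Of 10 signalling partners 9 had one (90%, 55.5 to 99.7, against the same 39.3%), among them the kinase genes Ptk2 and Ptk2b, the protease gene Adam10 and Wasf1, a regulator of actin. The peak over the start of Wasf1 reached 534. Cyfip1 was the exception, with its nearest peak at 1070 bp. Among cell type markers, 4 of 5 neuronal starts had a peak within 1 kb (Snap25, Slc17a7, Rbfox3 and Camk2a). Of the others, 0 of 3 astrocyte, 1 of 3 oligodendrocyte, 1 of 3 microglial and 1 of 2 hippocampal excitatory marker starts did. These marker lists are too short to set against the 39.3%, and no cell types were called from them.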

How the data were processed

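Per the labels' protocols, the authors trimmed reads and aligned them to mm10 with Bowtie2. They dropped duplicates and reads of low quality, and SEACR then called peaks against IgG. Versions, the SEACR settings and the annotation tool are not given in the sources used here. The deposited peak list gives total and maximum signal per peak, in whole numbers with an unstated scale, and the second deposited table gives the gene and the signed distance to its start. Sequencing depth is unknown from these files. Neither file has replicates.

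Peaks were joined to their annotation by the region of maximum signal, and members were taken by symbol. Gene starts are 5′ ends of GENCODE M21 genes. GENCODE gives the symbol Pcdha11 to 2 genes, and the first was named Pcdha10 after RefSeq. Sequence was read from GRCm38.p6, the build of the files. Coordinates count from 1. Genes named are the C-type genes, the member peaks with the highest maximum or total signal, genes with the most peaks or with a peak over the start, and those with none. Members and lists were chosen with earlier results of these data known. One gene of the list of signalling partners is not reported here and is left out of its count. Python 3.11.15, pandas 2.3.3 and scipy 1.17.1 were used, and the functions were checked on simulated peaks.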

Additional observations from a re-analysis of the deposited data

How the results depend on the processing

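A total of 42 alternatives were run on 7 results. In 34 of them a share or median stayed within its interval, a count within 1.5 times, or the GC difference within 4.35 percentage points, its approximate 95% margin over windows. The other 8 moved, and the GC difference kept its sign in all settings. The intervals were wide, such as 26.8 to 69.4% for member peaks not of constant height. Staying within them therefore does not show stability. Mean signal was judged by the interval of the maximum, and the share within 3 kb by that of the share within 1 kb. The GC difference of summits from flanks, 5.26 points, ranged from 2.03 with flanks 2000 bp away to 7.23 without constant-height peaks. Leaving out the peaks labelled Pcdhgb8 was added after seeing the data, and it moved none of the 5 results it was applied to. Without constant-height peaks there were 11 member peaks, with a median maximum signal of 165, and 3 gene starts with a peak. When only peaks higher than the list's median were kept, there were 10 member peaks and 2 such starts. Among the 10% with the highest total signal there were 3 member peaks and 1 such start, and 66.7% of the member peaks lay within 1 kb of a transcript start. These subsets hold fewer peaks by construction. The density ratio was 0.716 in the main setting and 1.03 without constant-height peaks. It thus passed 1, while staying within its interval of 0.459 to 1.07. No paired analysis was possible because each antibody has 1 library.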
